A study of Homo sapiens with 3 samples.

Results

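The genes of 40 corepressors and chromatin enzymes that work with MECOM were examined for MECOM binding in HEK293T, a cell line of human embryonic kidney origin. A gene was taken to have a peak where the deposited peak list named it as the assigned gene, and 7 of the 40 genes were named, with 8 peaks of the 3462 in the list. The 7 genes were RCOR1, CHD4, KAT2B, EZH2, GATAD2B, SMARCA2 and CTBP2. Binding was measured by chromatin immunoprecipitation with sequencing (ChIP-seq) against an AM tag, a short peptide carried by the introduced protein. The cells carried tagged wild-type MECOM on the pMYS-IG vector, which the series design describes as transduced and the labels' protocol as transfected. The group held 1 library, so no peak value has a replicate, and lists for the vector cells and for the R750W form of MECOM were not analysed here. The protein was introduced into the cells, and what the antibody recovers from cells without the tagged protein was not looked at here. No expression data are used here, so the cell type was not checked against its markers, nor the activity of the bound genes.

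MECOM, also called EVI1, is a zinc finger transcription factor of blood stem cells that is highly expressed in some myeloid leukaemias. It represses target genes in part by recruiting the CtBP corepressors, which in turn gather histone deacetylases, the demethylase LSD1 (KDM1A) with its CoREST partners (RCOR1 to RCOR3), and H3K9 methyltransferases. Other members of the list form the NuRD remodelling and deacetylase complex, the SWI/SNF remodellers and the Polycomb complexes. The remaining members are the CtBP-binding repressors ZEB1 and ZEB2, the scaffold TRIM28, DNA methyltransferases with their cofactor DNMT3L, and the histone acetyltransferases KAT2B, CREBBP and EP300. The peaks describe where tagged MECOM was recovered near the genes of these proteins, not contacts between the proteins.

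The sequences under these peaks are shown where a RefSeq window around a gene start reached one, together with the window next to the highest peak and the GATAD2B window, which lies 282 bp from the GATAD2B peak. Each is written 5′ to 3′ on the strand of the gene, from RefSeq on GRCh38.p14, and capitals mark matches to the 6 motifs searched.
EZH2, inside the peak and upstream of an internal start, chr7:148883486-148883715, minus strand: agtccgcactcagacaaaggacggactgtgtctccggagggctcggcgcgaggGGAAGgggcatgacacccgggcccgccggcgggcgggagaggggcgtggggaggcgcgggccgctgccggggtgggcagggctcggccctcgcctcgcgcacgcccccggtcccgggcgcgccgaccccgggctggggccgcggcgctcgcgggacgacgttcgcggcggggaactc
CTBP2, inside the peak and upstream of an internal start, chr10:125160045-125160207, minus strand: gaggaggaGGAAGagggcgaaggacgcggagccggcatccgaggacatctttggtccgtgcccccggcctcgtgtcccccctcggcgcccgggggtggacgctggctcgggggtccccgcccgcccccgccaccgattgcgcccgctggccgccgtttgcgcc
LOC105369631, inside the peak assigned to CHD4, chr12:6614079-6614135, plus strand: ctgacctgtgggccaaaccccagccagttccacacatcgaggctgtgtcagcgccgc
EP300, inside a peak that the table assigned elsewhere and upstream of the start, chr22:41092533-41092591, plus strand: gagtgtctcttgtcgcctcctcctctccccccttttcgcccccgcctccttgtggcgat
RCOR1, between the peak and the start, chr14:102592399-102592648, plus strand: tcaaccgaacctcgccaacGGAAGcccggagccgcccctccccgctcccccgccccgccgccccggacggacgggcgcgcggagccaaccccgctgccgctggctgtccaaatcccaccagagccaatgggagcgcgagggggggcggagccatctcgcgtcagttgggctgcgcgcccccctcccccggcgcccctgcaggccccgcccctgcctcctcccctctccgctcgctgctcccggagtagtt
GATAD2B, upstream of the start, outside the peak, chr1:153922973-153923222, minus strand: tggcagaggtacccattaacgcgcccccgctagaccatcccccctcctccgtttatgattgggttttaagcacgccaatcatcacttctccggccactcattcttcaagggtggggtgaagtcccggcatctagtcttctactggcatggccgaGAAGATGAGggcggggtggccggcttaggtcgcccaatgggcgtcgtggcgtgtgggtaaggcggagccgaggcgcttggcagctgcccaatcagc
The stretches were rich in G and C, from 60.8% at GATAD2B and 64.4% at EP300 to 80.0% at EZH2. EZH2 held 37 CpG dinucleotides in 230 bases and CTBP2 held 22 in 163 bases.

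Peaks were assigned to 17.5% of the 40 members, against 9.94% of 20033 protein-coding genes. This is a description of 1 list without a test. The members were also longer, with a median gene length of 54.0 kb, against 24.1 kb for all protein-coding genes. Genes assigned a peak were longer than those without one, at medians of 45.6 kb and 22.7 kb over all protein-coding genes. The part of gene length in the members' share was not tested. Within the list the 7 members with a peak had a median length of 118 kb, from 37.3 to 178 kb. The 33 without one had a median of 47.0 kb, from 6.65 to 353 kb.

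The corepressor scaffold gene RCOR1, which encodes CoREST1, the protein that links LSD1 to histone deacetylases and nucleosomes, had the highest peak of the group. It lay on chromosome 14 from 102592102 to 102592379 (hg38), 282 bp upstream of the start given in the deposited table. Its fold enrichment as given by the authors was 7.41 (95% exact Poisson interval 4.86 to 10.9). The fold is a ratio over local background, taken here as fragments plus 1 over background plus 1. For RCOR1 it rested on 24 fragments, recovered from the fold and p-value, over an expected background of 2.37, with a −log10 q of 11.8. Of all peaks, 5.29% had a higher fold. It was the only peak of the 8 whose interval lay wholly above the list median of 4.82, a position held by 5.46% of all peaks. That interval carries no correction for the many peaks in the list. The printed RCOR1 stretch begins 19 bp beyond the peak and runs to the RefSeq start, with 30 CpG dinucleotides and a single GGAAG. The other genes of the LSD1 group had no assigned peak. The nearest peak lay 97.9 kb from RCOR2, 263 kb from RCOR3 and 1579 kb from KDM1A.

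NuRD genes held the next highest peak. CHD4, which encodes the chromatin-remodelling ATPase of NuRD, was assigned a peak on chromosome 12 from 6614079 to 6614415, 6603 bp upstream of its start. The enrichment was 5.93-fold (3.48 to 9.55) from 15 fragments, at a background of 1.70 that is the lowest in the list. This peak spanned the RefSeq start of LOC105369631, a long non-coding RNA gene on the opposite strand to CHD4, at position 6614086. The CHD4 start in the RefSeq table of starts was 7628 bp away. GATAD2B, which encodes the p66-beta subunit of NuRD, had a peak on chromosome 1 from 153922430 to 153922690, inside the gene and 285 bp from its start. It reached 4.17-fold (2.56 to 6.46), with 18 fragments over a background of 3.56. With 261 bp it was the narrowest of the 8 peaks. The other NuRD members, MBD3, GATAD2A, MTA1, MTA2 and MTA3, had no assigned peak. Among them MTA1 came nearest to one, at 10.5 kb, and MTA3 lay farthest, at 2896 kb.

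KAT2B, which encodes the acetyltransferase PCAF, was the only member with more than 1 peak. Its peaks on chromosome 3 ran from 20040669 to 20040938 and from 20041460 to 20041746, both inside the gene and separated by 521 bp. The enrichments were 4.39-fold (2.73 to 6.73, 19 fragments over 3.56) and 4.63-fold (2.92 to 7.04, 20 fragments over 3.53), values well inside each other's intervals. KAT2B has a single RefSeq start in the table used, 223 bp from the nearer peak.

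EP300, which encodes the acetyltransferase p300, had no assigned peak, yet a peak on chromosome 22 from 41092533 to 41092863 spanned its RefSeq start at position 41092592. The deposited table gave this peak to ENSG00000221160, a gene without a symbol in the table, and classed it as overlapping that gene's end. In RefSeq the microRNA gene MIR1281 begins just before the EP300 start. The EP300 peak was among the weakest of the list, at 2.64-fold (1.70 to 3.94) with 22 fragments over a background of 7.71. Its −log10 q was 2.0, and 1 peak in the list had a lower value. Its interval lay wholly below the list median. For CREBBP, the paralogue of EP300, the nearest peak was 392 kb away.

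EZH2, the catalytic subunit gene of Polycomb repressive complex 2, had a peak on chromosome 7 from 148883391 to 148883715. The deposited table placed it inside the gene, 606 bp from the outermost start. The peak spanned a second RefSeq start of EZH2, at position 148883485. It reached 4.34-fold (2.79 to 6.47), with 22 fragments over 4.30. BMI1, which encodes a Polycomb repressive complex 1 subunit, had no assigned peak, but a peak lay 4225 bp from it, on chromosome 10 from 22316452 to 22316874. That peak was assigned to COMMD3-BMI1, the readthrough gene that runs through COMMD3 into BMI1, and lay 64 bp inside its start. With 6.88-fold enrichment (4.62 to 9.89, 27 fragments over 3.07) it was exceeded by 8.15% of peaks, and its interval overlapped that of RCOR1. The nearest peaks to EZH1, EED and SUZ12 were 46.0, 176 and 264 kb away.

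SMARCA2, an ATPase gene of the SWI/SNF remodellers, had the widest of the 8 peaks, 844 bp on chromosome 9 from 2016222 to 2017065. It lay inside the gene, 1003 bp from its start, and reached 4.10-fold (2.71 to 5.98) with 25 fragments over 5.34. SMARCA2 thus had the most recovered fragments of the 8 peaks and the second lowest fold, with the highest background. Peak width did not enter the recovery, so these numbers are not shown to be totals over the peaks. SMARCA4, the paralogue of SMARCA2, was 28.4 kb from a peak and SMARCB1 220 kb.

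CTBP2, whose protein MECOM recruits directly, had the lowest of the 8 peaks. It lay on chromosome 10 from 125160045 to 125160374, inside the gene, at 3.84-fold (2.33 to 6.02) from 17 fragments over 3.69. The peak was 796 bp from the start given in the deposited table. The RefSeq span of CTBP2 runs further upstream, to position 125162463. The −log10 q was 3.52, and 80.0% of all peaks had a higher one. This peak ended in the direction of transcription 88 bp before an internal RefSeq start of CTBP2, at position 125159957. CTBP1 was 202 kb from a peak. The genes of the CtBP-binding repressors ZEB1 and ZEB2 were 4076 and 2253 kb from one, among the largest distances of the list.

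**Figure D1:**
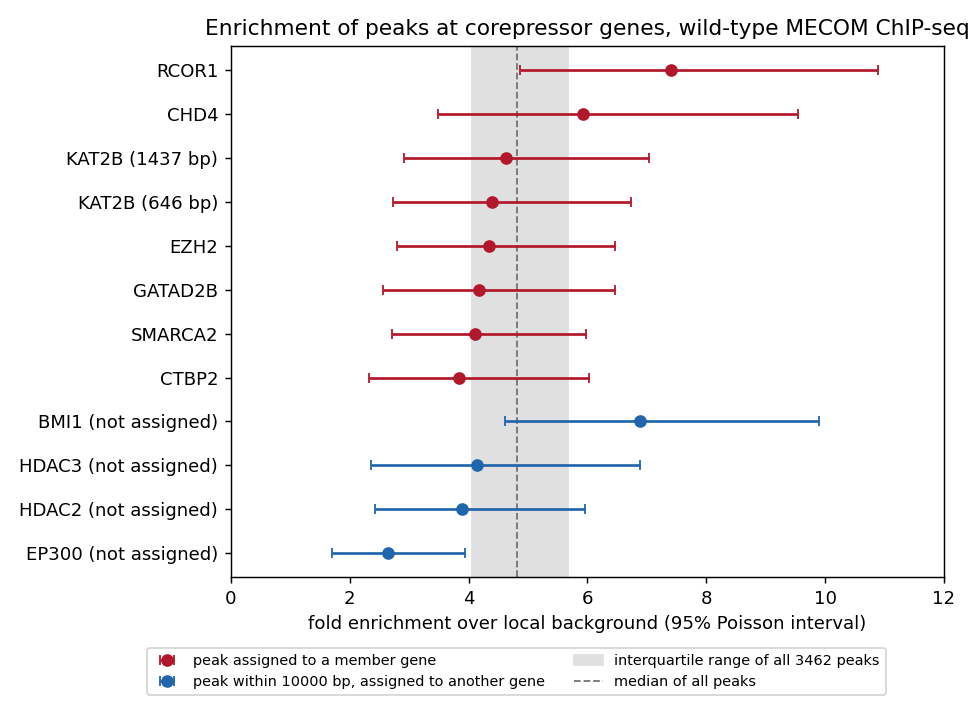
Fold enrichment over local background (horizontal axis, linear) for the 8 peaks assigned to member genes in red and for 4 peaks within 10000 bp of members without an assigned peak in blue. Bars are 95% exact Poisson intervals for a fixed background, and KAT2B peaks carry their distance from the start; the red intervals all overlap each other, and RCOR1 is the only assigned peak whose interval clears the dashed list median of 4.82.

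Among the 8 peaks the intervals overlapped in all 28 pairs, which does not show that the values are equal. The fold of RCOR1 lay above the upper limits of 6 of the other 7 peaks, and no test between peaks was made. Their median enrichment was 4.36-fold, against 4.82-fold for all 3462 peaks, and 2 of the 8 lay above that median. By −log10 q the order of the medians was the other way round, at 5.58 for the members against 5.33 for all peaks, with 5 of 8 above. The members' peaks had a median of 19.5 fragments over a median background of 3.56, against 18 fragments over 2.92 in the list. The fold therefore ran lower with more fragments over a higher background. The members' peaks were narrow, with a median width of 306 bp against 414 bp, and 7 of 8 were narrower than the list median. Fold values of 47.1% of all peaks fell inside the interval of RCOR1, and of 80.8 to 90.8% inside those of the other 7 peaks.

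**Figure D2:**
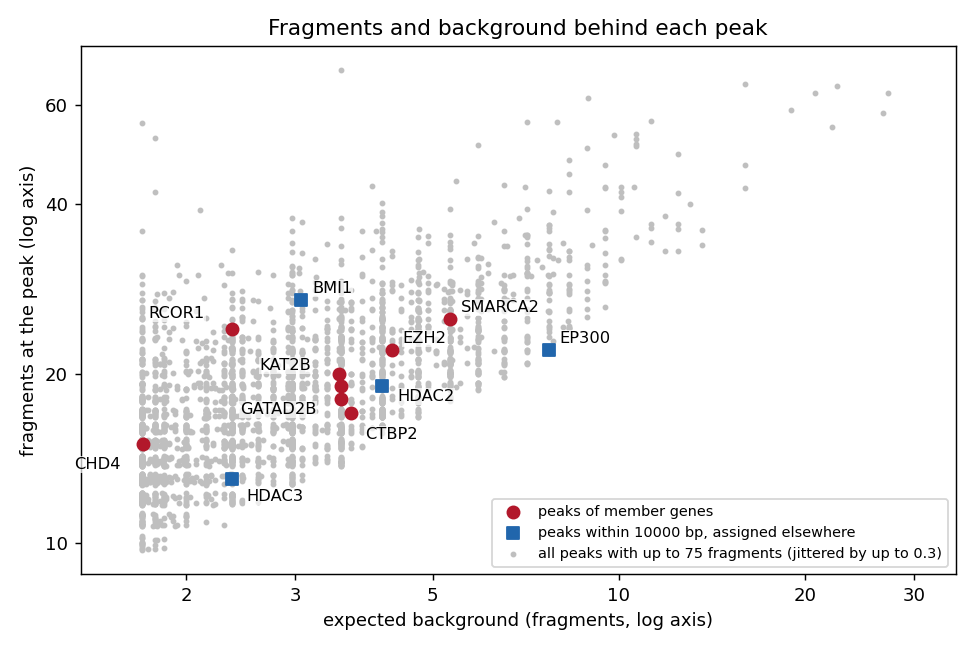
Fragments at each peak against the expected background, both on log axes. Red circles are peaks of members, blue squares are peaks within 10000 bp of members that the table assigned elsewhere, and grey points are all peaks on the assembled chromosomes with up to 75 fragments; RCOR1 and BMI1 stand high for their background, while EP300 lies at the lower edge.

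Most of these peaks lay near the gene start, as did most annotated peaks of the list. Of the 8, 6 lay inside the gene with their nearer edge 285 to 1437 bp past the start, a place taken within 1500 bp by 31.8% of the 3419 annotated peaks. A further peak, that of RCOR1, lay 282 bp upstream, so that 7 of 8 were within 1500 bp of the start, as were 65.4% of all annotated peaks. These counts, with the limit of 1500 bp, were chosen after the values were seen and carry no test. None of the 8 peaks lay across the start by the deposited classes, against 19.7% of all annotated peaks. Counted by gene, no member was assigned such a peak, against 2.38% of protein-coding genes. With the RefSeq starts, which include internal starts and non-coding genes, 2 of the 8 peaks spanned a start, those of EZH2 and CHD4, and 22.5% of all peaks did so. Only KAT2B had a second peak close by. The next peak was 41.0 kb away for GATAD2B, 57.1 kb for EZH2, 66.8 kb for RCOR1 and 139 kb for CHD4, and over 500 kb for CTBP2 and SMARCA2.

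**Figure D3:**
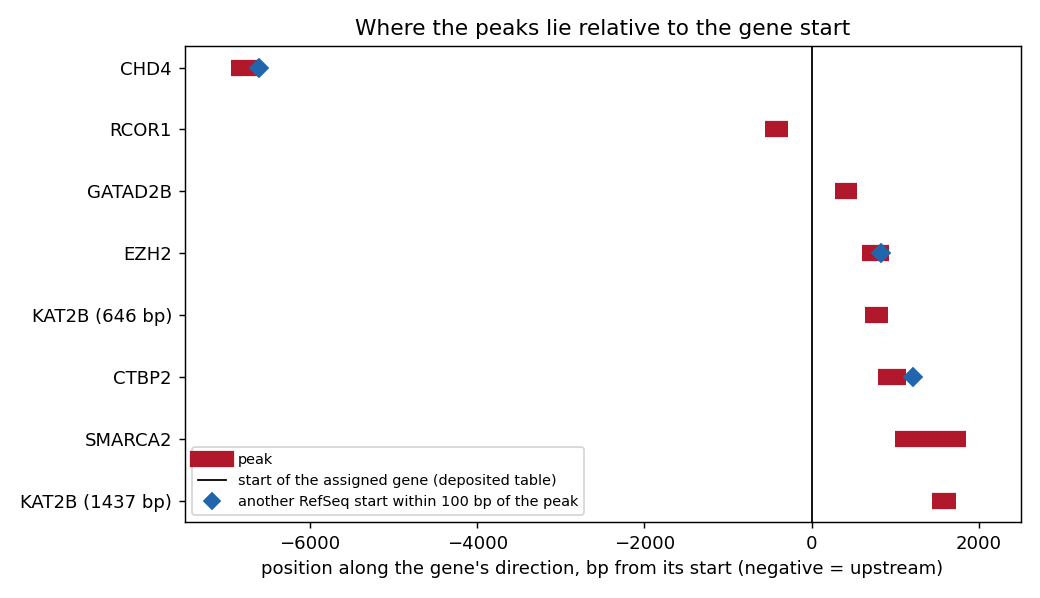
Position of the 8 peaks (red bars, to scale) along the direction of transcription, in bp from the start of the assigned gene in the deposited table. Blue diamonds mark another RefSeq start within 100 bp of the peak, found at CHD4 (a non-coding gene), EZH2 and CTBP2; no bar crosses the line at 0.

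The 33 members without an assigned peak differed widely in their distance from one. The histone deacetylase genes were all unassigned, but a peak lay inside HDAC2, on chromosome 6 from 113970406 to 113970680 and 468 bp from the HDAC2 start. The table gave it to HDAC2-AS2, an antisense non-coding gene that overlaps HDAC2. It reached 3.89-fold (2.42 to 5.96) with 19 fragments over 4.15. HDAC3 was 1953 bp from a peak that reached 4.15-fold (2.35 to 6.89). That peak was assigned to a gene without a symbol, ENSG00000228737, and lay 72 bp from the start of DIAPH1. HDAC1 was 61.0 kb from a peak and HDAC4 796 kb. The 6 genes of H3K9 methylation also had no assigned peak, and their nearest peaks lay 24.3 kb away for TRIM28, 51.5 kb for EHMT1, 55.1 kb for SUV39H2, 83.1 kb for SETDB1, 121 kb for SUV39H1 and 513 kb for EHMT2. Of these, TRIM28 encodes the KAP1 scaffold of KRAB zinc finger repression, and the others encode methyltransferases. The DNA methyltransferase genes were likewise unassigned, with nearest peaks at 143 kb for DNMT3L, a catalytically inactive cofactor, 149 kb for DNMT3A, 155 kb for DNMT3B and 183 kb for DNMT1. Over the 33 members the median distance was 143 kb, with 18 beyond 100 kb. Over all protein-coding genes without an assigned peak the median was 203 kb, with 66.7% beyond 100 kb.

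**Figure D4:**
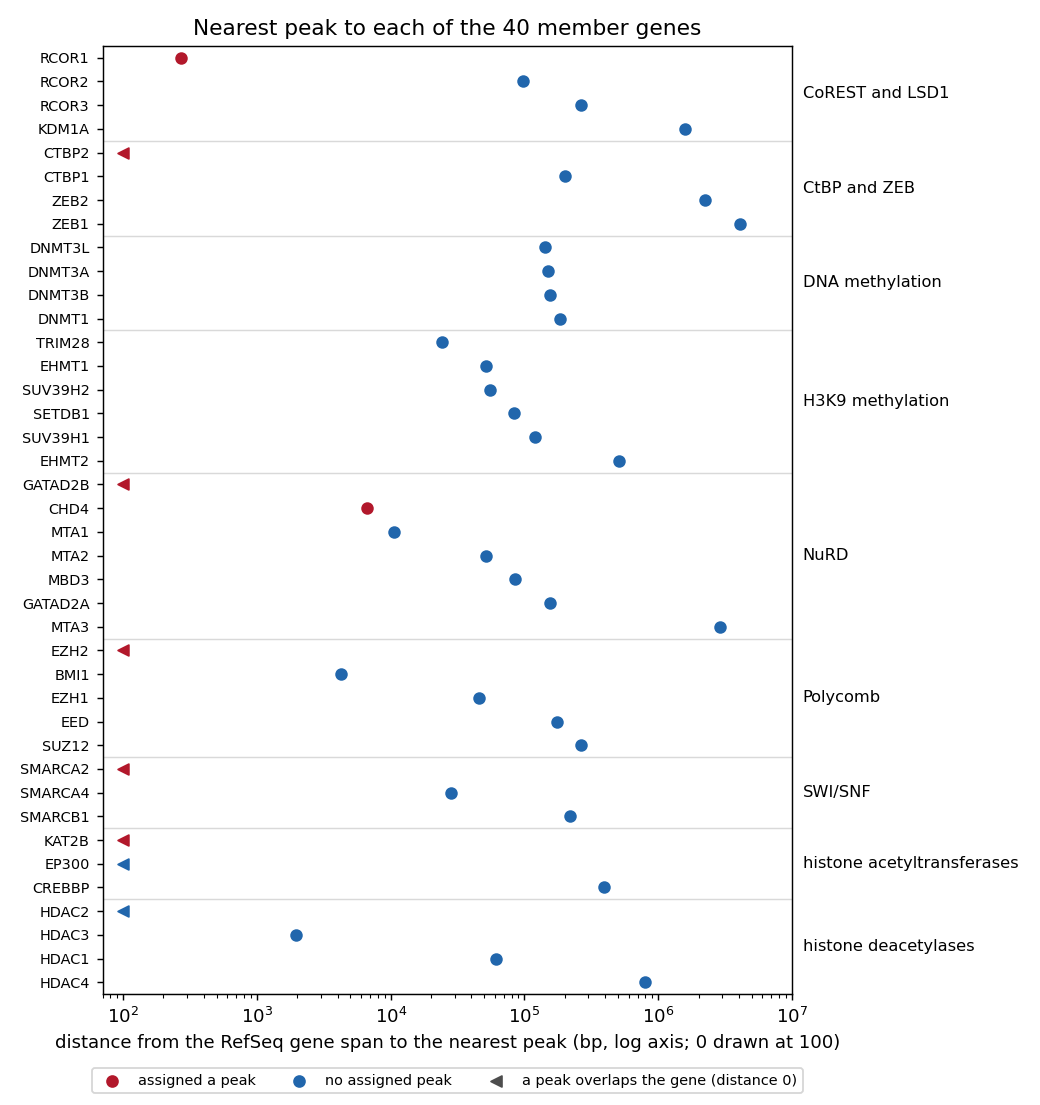
Distance from the RefSeq span of each of the 40 members to the nearest peak, in bp on a log axis, grouped by complex, with a distance of 0 drawn at 100. Red marks members assigned a peak and blue those without; triangles mark a peak that overlaps the gene, and HDAC2 and EP300 are blue triangles.

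Counting by position in place of the table's assignment kept the number of members but not their identity. A peak overlapped the RefSeq span of 7 members, with EP300 and HDAC2 in place of RCOR1 and CHD4. That was again 17.5%, against 11.4% of protein-coding genes. With peaks up to 10000 bp from the span, 11 members counted (27.5%), namely these 7 with RCOR1, CHD4, BMI1 and HDAC3, against 17.0% of protein-coding genes.

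Other subunits and partners of the same complexes were assigned peaks at a similar share, in 23 of 143 genes (16.1%), against 9.94% of protein-coding genes. A peak across the start was assigned to 5 of the 143 (3.5%), against 2.38% of protein-coding genes. The 27 peaks of the 23 genes had a median enrichment of 4.73-fold. The 143 genes had a median length of 48.5 kb. Among Polycomb partners 7 of 32 genes were assigned a peak: PCGF1, PHF19, CBX8, BCOR, PCGF5, CBX6 and YAF2. PCGF1, which encodes a subunit of a variant Polycomb repressive complex 1, was highest at 8.35-fold (5.42 to 12.4), followed by PHF19 at 5.67 (3.39 to 9.01) and CBX8 at 5.65 (3.63 to 8.43). The interval of PCGF1 lay wholly above the list median. PHF19 and BCOR held their peaks far inside the gene, with the lower coordinate of the peak 18649 and 23428 bp from the start.

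In the DNA methylation group, where no methyltransferase gene was assigned a peak, 3 of 11 others were. MBD4, which encodes a glycosylase that repairs mismatches at methylated CpG sites, had the highest peak of all these genes, at 10.9-fold (7.52 to 15.3). The demethylation genes TET2 and TET1 reached 4.76-fold (2.75 to 7.77) and 4.73-fold (2.94 to 7.26). The TET1 value is that of the higher of its 2 peaks. The CoREST partners counted 2 of 10, GSE1 with 3 peaks of 3.69 to 4.98-fold and PHF21A at 4.73-fold (2.94 to 7.26). Acetyltransferase and coactivator genes counted 4 of 15, KAT6A (4.73-fold), NCOA2 (4.47), NCOA1 (4.35) and KAT6B (4.26). ARID4B, which encodes a subunit of the SIN3 corepressor complex, reached 4.20-fold (3.06 to 5.62). In each of 5 further groups 1 gene had a peak: ZMYND8 in NuRD (5.60-fold), SIRT2 among the deacetylases (5.82), MPHOSPH8 in H3K9 methylation (5.28), RREB1 among CtBP-binding factors (4.61) and BCL11A in SWI/SNF (3.88). With members and partners combined, the share of genes with a peak ran from 6.25% for H3K9 methylation, 1 of 16 genes, to 27.8% for acetyltransferases, 5 of 18. Over all protein-coding genes the share was 9.94%. Counts this small did not order the complexes.

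**Figure D5:**
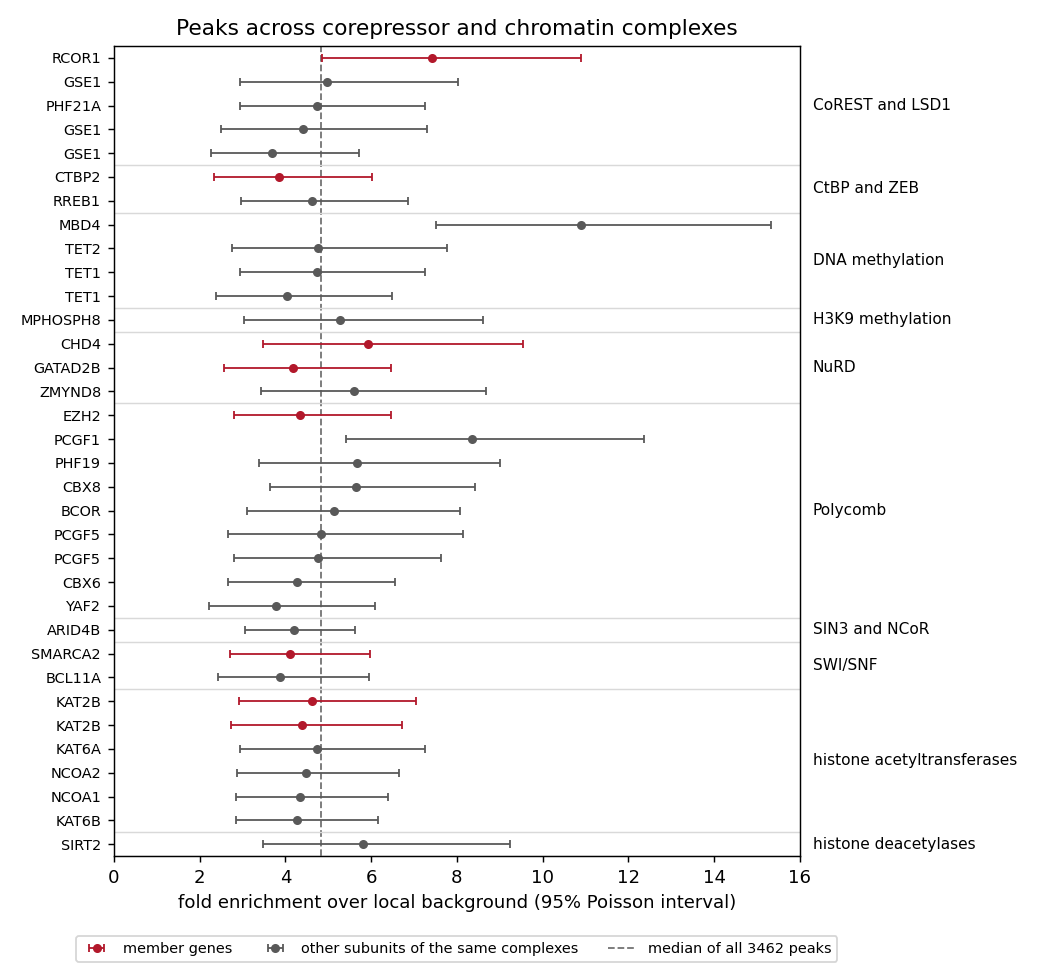
Fold enrichment with 95% exact Poisson intervals for peaks assigned to a member (red) or to other subunits of the same complexes (grey), grouped by complex. MBD4, PCGF1 and RCOR1 are the peaks whose intervals clear the dashed list median of 4.82.

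Promoter windows of the members were searched on both strands for motifs tied to MECOM or its partners. Windows of 300 bases (250 before to 50 after a RefSeq start) were found for 37 members, in 71 windows, and the shares in all 34943 windows are given beside them. GATAAG, a core bound by the first zinc finger domain of MECOM and by GATA factors, was found at 1 member, an internal start of SMARCA2, or 1.41% of windows against 6.37% in all. GACAAGATA, also searched for the same domain, was found at none, against 0.0973%. It ends in the GATA that opens GATAAG, so these are not independent motifs. GAAGATGAG, the motif of the second zinc finger domain, was found at 1 member, GATAD2B. That was 1 of the 71 windows, or 1.41%, against 0.349% in all. This match is the capital run in the GATAD2B stretch above, which lies outside the peak. TGANTCA, the AP-1 motif, was found at SMARCA2 and SMARCB1, in 2.82% of the members' windows against 7.72%. The windows of SMARCA2 also lie outside its peak, which was 875 bp from the nearest RefSeq start of the gene. CACCTG, an E-box bound by ZEB proteins, was found in 16.9% against 20.6%. It was found at 7 of the 30 members with windows but no assigned peak, and at 0 of the 7 with one. These counts are small, and no test was made between the groups. GGAAG, the ETS core, was found in 66.2% against 71.8%, and the capitals in the EZH2, CTBP2 and RCOR1 stretches mark it. GGAAG does not overlap the other motifs within those stretches. The members' windows were also richer in G and C, at a median of 67.3% with a peak and 69.0% without, against 58.7% in all windows, and a motif's share moves with base composition. The part of composition was not tested. Of the members with an assigned peak, only EZH2 and CTBP2 had a window that reached into that peak. Windows without a match therefore say nothing of sequence in the other peaks, or beyond the windows in those of EZH2 and CTBP2.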

How the data were processed

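The deposited peak list lacks a header, and the meaning of each column was read from its values. Its link to the wild-type library rests on the genotype in its name. The submitters' processing notes list Bowtie2, MACS2, ChIPseeker, deepTools and HOMER and the hg38 build, with no role or order. The authors' deposited fold is a ratio over local background. The deposited −log10 p and −log10 q are those of their peak caller, and the deposited score is the −log10 q times 10, cut to a whole number, in each of 3465 lines. Of the lines, 3 repeat a peak. Peak values were used to describe and rank peaks within this list.

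The fragments behind a peak were recovered by searching for the whole number that matched both its fold, taken as fragments plus 1 over background plus 1, and its Poisson −log10 p, within 0.001 (a share of 1e-05 above 1000). A single solution existed at each of the 3462 peaks, and 100% of 492 simulated peaks were recovered. Peak width did not enter this search, so the recovered number is not shown to be a total over the whole peak. Total reads per library are not used here. Intervals are exact 95% Poisson intervals with the background fixed and cover counting error only.

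Gene spans, starts and sequences came from RefSeq on GRCh38.p14. Starts were found for 37 of 40 members. Distances run from the nearer peak edge, with 2 exceptions that use the lower coordinate of the peak. These are the distances of PHF19 and BCOR, and the settings with a limit of 1000 or 10000 bp to the start unless the edge is named. All members with a peak, members with a peak within 10000 bp, and other subunits with a peak were named; 1 gene is counted but not reported here. The members, lists and motifs were chosen with earlier results of these data known. Python 3.11.15, pandas 2.3.3, numpy 2.4.6, scipy 1.17.1 and matplotlib 3.10.9 were used.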

Additional observations from a re-analysis of the deposited data

How the results depend on the processing

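The number of members with a peak, 7 of 40, was 5 to 8 at a q of at most 1e-05, with peaks inside the gene or within 10000 bp of its start, and by overlap with the RefSeq span in 3 forms. In these settings that was 12.5 to 20.0% of members, against 5.52 to 13.7% of protein-coding genes. The number was 2 among peaks at or above the median fold, where RCOR1 and CHD4 were left. That was 5.0% of members against 5.04% of protein-coding genes, so the members' higher share was not seen among the higher peaks. It was 4 (10.0% against 7.09%) with peaks across a start or with their lower coordinate within 1000 bp of it, and 5 (12.5% against 7.67%) by the nearer edge. It was 11 (27.5% against 17.0%) with the span widened by 10000 bp. The nearer edge and the wider span were tried only once the peaks were known. The 23 other subunits became 11 (7.69% against 5.04%) among peaks at or above the median fold and 40 (28.0% against 17.0%) with the span widened by 10000 bp. In the other 4 settings they were 16 to 32 (11.2 to 22.4%), against 5.52 to 13.7% of protein-coding genes. The median enrichment of the members' peaks, 4.36, ran from 4.34 to 5.23 over 5 settings and was below that of all peaks in each. The highest value came with the fold computed without the added count, against 6.33 for all peaks. No paired analysis was possible because the list comes from 1 library. A median of 18 fragments at a peak leaves wide intervals on its fold.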
